A study of Mus musculus with 10 samples.

Results

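The 8 genes described here are Epx, Prg2, Il5ra, Csf2rb, Ccr3, Ccl11, Ccl24 and Alox15, which encode proteins of the eosinophil, the receptors that govern its growth and recruitment, and the eotaxins that attract it. They were chosen by name, and their members in the data are the 1000 bp windows that overlap a gene span of RefSeq extended by 5 kb on each side. 75 of the 446336 windows met this rule, and 7 of the 8 genes had at least 1 window. Ccl11 had none and was not analysed here. Methylation was measured by targeted bisulfite sequencing (SureSelect Methyl-seq) of whole lung DNA from female BALB/c mice of 8 weeks. The 3 Saline mice received saline only. The 3 OVA mice were sensitized by injection of 50 µg of ovalbumin (OVA) with alum and challenged intranasally with 25 µg of OVA from day 12 for 4 days. The 4 DSE mice had the same OVA exposure and were given Descurainia sophia seed extract (DSE) by mouth at 200 mg/kg from day 9 to day 15. All groups were thus of 1 strain, sex and age, and the DSE mice differed from the OVA mice in the extract. No group received the extract without OVA.

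Eosinophils are granulocytes that enter the airway wall in allergic inflammation. Interleukin 5 drives their maturation and survival through a receptor made of a specific alpha chain (Il5ra) and a beta chain shared with interleukin 3 and GM-CSF (Csf2rb), and the eotaxins (Ccl11, Ccl24) attract them through the receptor Ccr3. Methylation of cytosines in CpG pairs is a stable mark that differs between cell types, and it is commonly low at the regulatory elements a cell uses. A window value here is the percentage of CpG calls in which the cytosine was protected from conversion, so it averages over every cell of the lung.

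The measured windows differ widely in CpG content, from 2 to 40 CpGs. The stretches below come from the GRCm38.p6 reference, read 5′ to 3′ on the strand of the gene, with each CpG in capitals, and they are shown because the windows around them were measured. The reference is not the BALB/c genome. The first is the 250 bases before the start of Il5ra (chr6:106749038-106749287, minus strand), from the RefSeq promoter table, and it holds 4 of the 8 CpGs of the window at the start site.

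Il5ra: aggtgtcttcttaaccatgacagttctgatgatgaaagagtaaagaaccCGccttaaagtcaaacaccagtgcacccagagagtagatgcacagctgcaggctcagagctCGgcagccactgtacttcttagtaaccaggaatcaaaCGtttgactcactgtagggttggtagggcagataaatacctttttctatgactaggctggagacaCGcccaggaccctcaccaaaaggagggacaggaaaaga

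The 250 bases before the start of Ccr3 (chr9:124021721-124021970, plus strand) hold 0 CpGs, so that all CpGs measured in the windows at its start lay outside them.

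Ccr3: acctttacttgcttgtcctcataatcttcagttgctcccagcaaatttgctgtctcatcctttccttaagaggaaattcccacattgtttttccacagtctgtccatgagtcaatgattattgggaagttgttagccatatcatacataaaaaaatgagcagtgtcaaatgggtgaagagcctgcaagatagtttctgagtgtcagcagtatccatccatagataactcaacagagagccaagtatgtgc

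The largest difference between OVA and Saline mice was seen 7.5 kb past the start of Prg2, in a window that also holds the start of Prg3, the neighbouring gene for a second major basic protein. The 140 bases with the most CpGs outside untranslated exons of that window (chr2:84987760-84987899, plus strand) hold 5 of its 8 CpGs.

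Prg2: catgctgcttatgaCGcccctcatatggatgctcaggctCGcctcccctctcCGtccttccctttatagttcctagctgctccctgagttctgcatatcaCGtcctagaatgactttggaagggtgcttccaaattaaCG

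The corresponding 160 bases of the window at the start of Csf2rb (chr15:78326196-78326355, plus strand, just inside the gene) hold 5 of its 13 CpGs.

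Csf2rb: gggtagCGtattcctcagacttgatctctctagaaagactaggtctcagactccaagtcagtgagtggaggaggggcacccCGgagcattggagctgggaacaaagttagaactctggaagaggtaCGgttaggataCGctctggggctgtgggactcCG

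By contrast, 200 bases at the curated start of Alox15 (chr11:70351794-70351993, minus strand) hold 18 of the 40 CpGs of their window.

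Alox15: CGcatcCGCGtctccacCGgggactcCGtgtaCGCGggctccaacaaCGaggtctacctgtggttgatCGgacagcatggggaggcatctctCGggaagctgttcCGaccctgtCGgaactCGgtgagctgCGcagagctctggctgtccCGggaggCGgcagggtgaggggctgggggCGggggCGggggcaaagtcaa

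Of the members, only Il5ra, Ccr3 and Epx are in the promoter table, whose entries also hold 50 bases after the start. The letters GATAA, the core recognised by GATA factors, were searched on both strands and found 73 bases before the start of Il5ra and 29 bases before that of Ccr3, and not in the Epx promoter. They occur in 25.4% of the 32851 promoters of the table. The palindrome bound by STAT6, TTC and GAA with 4 bases between them, was found 5 bases before the start of Epx and 27 bases after that of Il5ra, and occurs in 6.95% of promoters. These matches describe the letters only.

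The 7 genes contributed unequal numbers of windows: 14 for Epx, 5 for Prg2, 6 for Il5ra, 15 for Csf2rb, 8 for Ccr3, 5 for Ccl24 and 22 for Alox15. A window was used in a mouse with at least 20 calls, and 68 of the 75 windows reached this in all 10 mice. Windows start every 500 bp and overlap, so 39 windows formed the non-overlapping set, and 12 windows held exactly the calls of the window before them. The CpG calls per mouse in the non-overlapping windows of the whole table numbered 153328794 to 205414739. The pooled methylation of those windows was 36.4% ± 0.426 (SD, n = 3) in Saline, 36.7% ± 1.02 (n = 3) in OVA and 39.1% ± 0.677 (n = 4) in DSE mice. The mean of all windows was 51.8%, 52.9% and 52.9% in the same order. The median number of calls in a member window was between 185 and 353 per mouse. At such depth a mouse value has a sizeable counting error: at 109 calls, the 71.6% of Saline 1 in the Prg2 window had a 95% Wilson interval of 62.5 to 79.2, which covers counting error only.

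The first comparison, OVA with Saline, asks what sensitization and challenge did to the methylation of these genes. Methylation was summed over the non-overlapping windows of each gene span with its flanks (the locus). Since calls were summed, a locus value also depends on how the calls of a mouse are spread over its windows. By limma on log2 ratios of methylated over unmethylated calls, in which the mouse is the replicate, and with adjustment over 37095 gene loci, 4 of the 7 measured loci were lower in OVA mice at an adjusted p below 0.05 and 0 were higher. These were Epx, Prg2, Il5ra and Csf2rb, that is, both granule proteins and both chains of the interleukin 5 receptor. Over all loci 3.14% were called lower and 4.01% higher. The median difference of the 7 loci was -4.61 percentage points, beside 0.321 over all loci. In whole lung, a change in the share of a cell type and a change within cells cannot be told apart.

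Prg2, the gene of major basic protein, a toxic component of the granule core, had the largest locus difference between OVA and Saline mice. Its locus stood at 66.5, 62.0 and 66.3% in the Saline mice, at 54.5, 50.6 and 49.5% in the OVA mice and at 55.2, 52.8, 53.9 and 50% in the DSE mice. All OVA and DSE mice lay below all Saline mice. The mean was 65.0% ± 2.54 (SD, n = 3) in Saline and 51.6% ± 2.64 (n = 3) in OVA, a log2 difference of -0.80 ± 0.11 (SE; limma adjusted p = 0.00792), and the call held without any of the 10 mice. The locus has only 2 non-overlapping windows, with 206 calls or more per mouse. Restricted to the gene span, without the flank that reaches Prg3, the log2 difference was -0.29 with a limma adjusted p of 0.416.

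Il5ra, the interleukin 5 binding chain, had a locus methylation of 37.9, 37.2 and 36.2% in Saline, 31.0, 25.5 and 27.0% in OVA and 32.6, 28.3, 36.0 and 31.9% in DSE mice. The OVA and the Saline mice did not overlap. Between them lay 3 of the DSE mice, and DSE 2 lay within the range of the OVA mice. The fall from 37.1% ± 0.844 to 27.8% ± 2.86 gave a log2 difference of -0.61 ± 0.13 (SE; limma adjusted p = 0.0244). The difference kept its direction without any mouse (log2 -0.73 to -0.53), and the adjusted p rose above 0.05, to at most 0.0780, without any Saline mouse or without OVA 2 or OVA 3.

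Epx, the gene of eosinophil peroxidase, was the most methylated of the 4. Its values were 77.6, 78.2 and 79.2% in Saline, 74.9, 71.9 and 74.4% in OVA and 73.3, 74.6, 73.7 and 72.2% in DSE mice, so that neither exposed group overlapped with Saline. The OVA mean was 73.8% ± 1.61 against 78.4% ± 0.802 in Saline (log2 difference -0.36 ± 0.09; limma adjusted p = 0.0451). With each mouse left out the log2 difference ranged from -0.41 to -0.30, but the locus remained below 0.05 only without OVA 1 (adjusted p up to 0.133).

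Csf2rb, the common beta chain, was at 42.1, 43.2 and 41.3% in Saline, 36.0, 37.3 and 37.6% in OVA and 40.8, 41.6, 42.1 and 37.8% in DSE mice. Here the OVA mice lay below every mouse of the other groups. The mean fell from 42.2% ± 0.974 to 37.0% ± 0.849 (log2 difference -0.32 ± 0.08; limma adjusted p = 0.0390). The call was kept only without DSE 3 or DSE 4 (adjusted p up to 0.127), and it was lost on the gene span alone (adjusted p = 0.122).

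**Figure D1:**
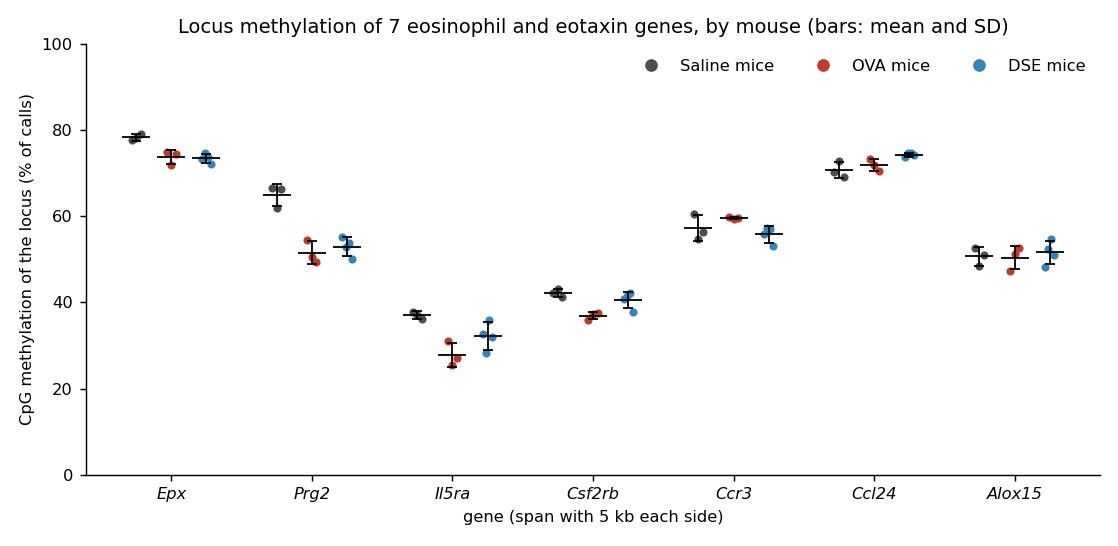
CpG methylation of the 7 loci in % of calls (vertical axis) for each mouse, by gene (horizontal axis) and group, with points for mice and bars for the mean and SD. Prg2, Il5ra, Csf2rb and Epx are lower in the OVA mice than in the Saline mice without overlap, while Ccr3, Ccl24 and Alox15 overlap.

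The other 3 loci were not called. Ccr3, the eotaxin receptor, had a locus methylation of 57.3% ± 3.04 in Saline and 59.7% ± 0.237 in OVA mice (limma adjusted p = 0.404). Ccl24, eotaxin 2, had 70.8% ± 1.81 and 71.9% ± 1.35 (adjusted p = 0.631). Alox15, the 12/15-lipoxygenase that eosinophils and alveolar macrophages use to oxidise arachidonic acid, had 50.7% ± 2.18 and 50.4% ± 2.68 (adjusted p = 0.938). Their Saline and OVA mice overlapped in every case. For Alox15 the mean over 11 windows covered differences of both signs, described below.

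Window by window, the likelihood ratio test on pooled calls with the thresholds of the study (adjusted p below 0.01 and at least 10 percentage points) called 7 of 72 tested member windows lower and 0 higher. Over all 436201 windows tested, 2.56% were called lower and 4.75% higher. This test treats calls as independent, whereas mice of a group differed by 2.59 to 3.66 times the binomial variance, so its p-values are too small. By limma, which uses the spread between mice, 6 of the 68 member windows with 20 calls in every mouse were lower (2.00% of all windows) and 0 higher. The difference was below 0 in 48 of the 72 windows, with a median of -2.67 percentage points beside 0.732 for all windows. In 22 member windows every OVA mouse was below every Saline mouse (9.01% of all windows) and in 5 every OVA mouse was above (18.0%). The number of calls depended on OVA 1: without it 15 member windows were called, and without OVA 2 only 6.

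The 7 called windows formed 4 regions, in Epx, beside Prg2, at Il5ra and upstream of Alox15. The Epx region (chr11:87871001-87872500) lies over intron 6 and exon 7 of the curated transcript, 3.5 kb past its start, and includes the starts of shorter predicted transcripts. Its window with the largest difference, with 20 CpGs and 790 to 1074 calls per mouse, was at 86.8, 86.1 and 86.3% in Saline, 70.5, 69.2 and 76.7% in OVA and 78.1, 71.4, 74.9 and 69.9% in DSE mice. The Saline mice agreed to within 0.356 (SD), and all 7 exposed mice were lower. The OVA mean differed from Saline by -14.3 percentage points (limma adjusted p = 0.0137; likelihood ratio adjusted p = 3.41e-39). An exact permutation test of 3 against 3 mice gave p = 0.1, the smallest it can give, and one of the 7 exposed against the 3 Saline mice gave p = 0.0167, again the smallest. No window lay within 1000 bp of the curated start of Epx.

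The Prg2 region (chr2:84987501-84989000) contains the start of Prg3 and overlaps the long noncoding RNA Gm39868. Its window stood at 71.6, 68.2 and 64.7% in Saline, 49.1, 43.5 and 46.5% in OVA and 64.3, 43.4, 53.0 and 54.5% in DSE mice. The OVA mice fell from 68.1% ± 3.45 to 46.4% ± 2.81, a difference of -21.8 percentage points (limma adjusted p = 0.0245), and the DSE mice spread from just under the lowest Saline mouse to the lowest OVA mouse. The same window is the promoter value of Prg3, which was called lower among 27028 promoters (limma adjusted p = 0.0223), while the Prg3 locus was not called (55.1% in Saline, 53.3% in OVA). The Prg2 start site itself (chr2:84980001-84981000, 4 CpGs) was at 62.1% ± 5.52 in Saline and 57.3% ± 3.58 in OVA mice (adjusted p = 0.480 among promoters). In DSE mice it was at 50, 58.2, 54.6 and 46.6%, a pooled difference of -10.3 percentage points from Saline that the likelihood ratio test called (adjusted p = 0.00293) and limma did not (adjusted p = 0.106), and the groups overlapped.

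At Il5ra the called window (chr6:106748001-106749000, exon 1 and intron 1, 5 CpGs) was at 33.1, 33.7 and 34.4% in Saline, 29.6, 18.3 and 17.9% in OVA and 32.9, 22.5, 34.6 and 32.6% in DSE mice. OVA 1 lay closer to the Saline mice than to OVA 2 and OVA 3. The pooled difference was -11.8 percentage points by the likelihood ratio test (adjusted p = 5.53e-07), but the window was not called by limma (adjusted p = 0.0927).

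The Alox15 region (chr11:70375501-70377000) lies 24.5 kb before the curated start, inside the first exon of a longer predicted transcript. Its window, with 12 CpGs and 623 to 852 calls, was at 70.8, 64.2 and 64.1% in Saline, 50.1, 50.1 and 51.4% in OVA and 51.7, 52.7, 53.2 and 55.8% in DSE mice. All exposed mice were below all Saline mice, and the OVA mice were also below the DSE mice. The means were 66.4% ± 3.83, 50.5% ± 0.727 and 53.3% ± 1.73 (OVA against Saline, limma adjusted p = 0.0134). At the curated start of Alox15, by contrast, methylation was 0.813 to 1.95% in all 10 mice.

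**Figure D2:**
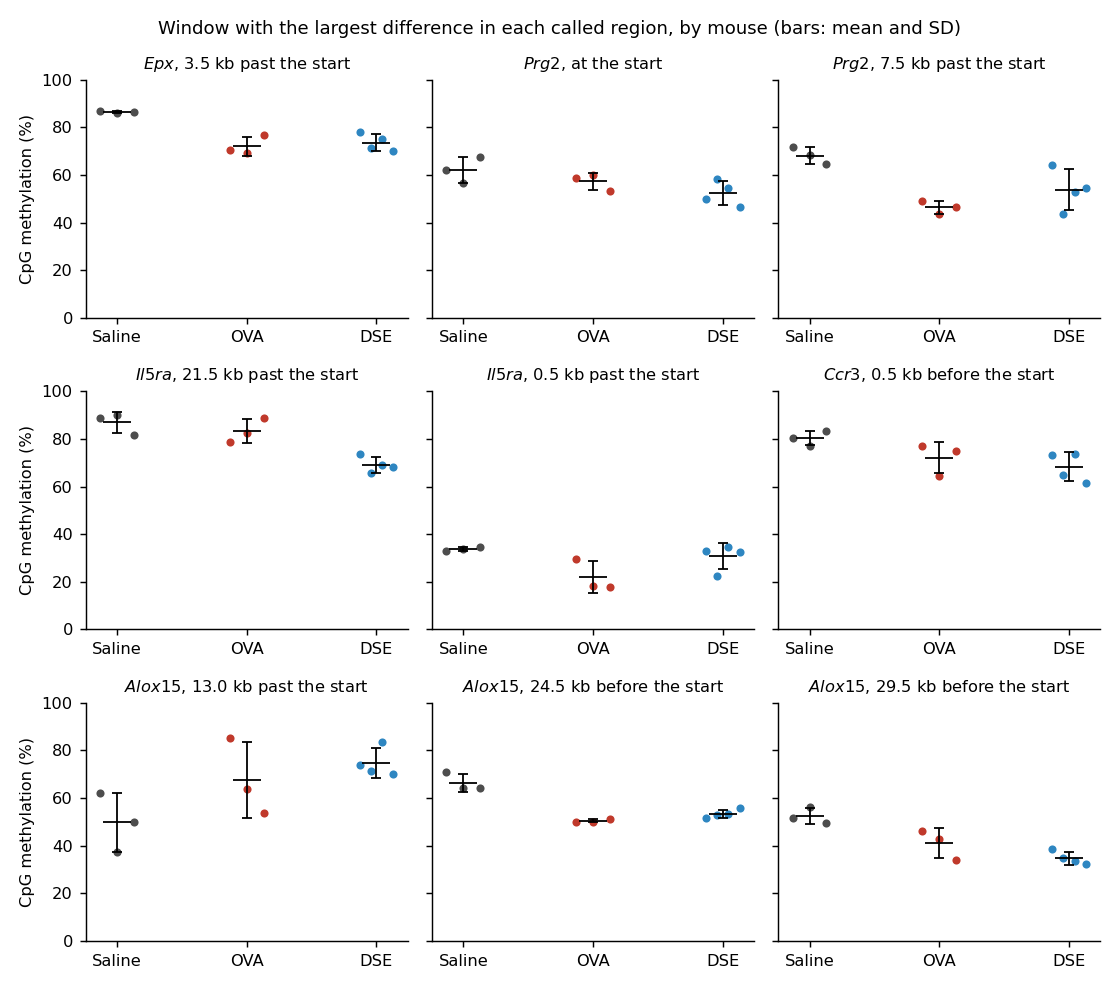
CpG methylation in % (vertical axis) of the window with the largest difference in each of the 9 regions called in any comparison, by group (horizontal axis), with points for mice and bars for the mean and SD. The Epx window and the Alox15 window 24.5 kb before the start are lower in all 7 exposed mice than in the 3 Saline mice.

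Promoters, taken as windows with a midpoint within 1000 bp of the curated start, could be measured for 5 members. Their means were lower in OVA than in Saline mice for all 5, beside 46.3% of all promoters, and that of Alox15 was near 0 in both groups (1.45 and 1.06%). By limma 0 of 5 were called, with 3 at an unadjusted p below 0.05 (1.63% of all promoters were called lower and 2.26% higher). The Csf2rb promoter was at 24.6, 26.1 and 23.8% in Saline, 21.2, 15.2 and 14.1% in OVA and 23.0, 21.9, 20.8 and 15% in DSE mice (OVA against Saline, adjusted p = 0.0880). The Il5ra promoter had means of 32.1% ± 1.33, 24.0% ± 4.08 and 28.2% ± 3.47 (adjusted p = 0.0927). In both, OVA 1 was the OVA mouse nearest to Saline, and without OVA 1 both were called (adjusted p = 0.0338 and 0.0367). Neither was called without any other mouse (adjusted p up to 0.238 and 0.245) or under any of 6 alternative settings. The Ccr3 promoter was at 80.3% ± 3.06 in Saline and 72.2% ± 6.64 in OVA mice, on 28 calls or more (adjusted p = 0.194).

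**Figure D3:**
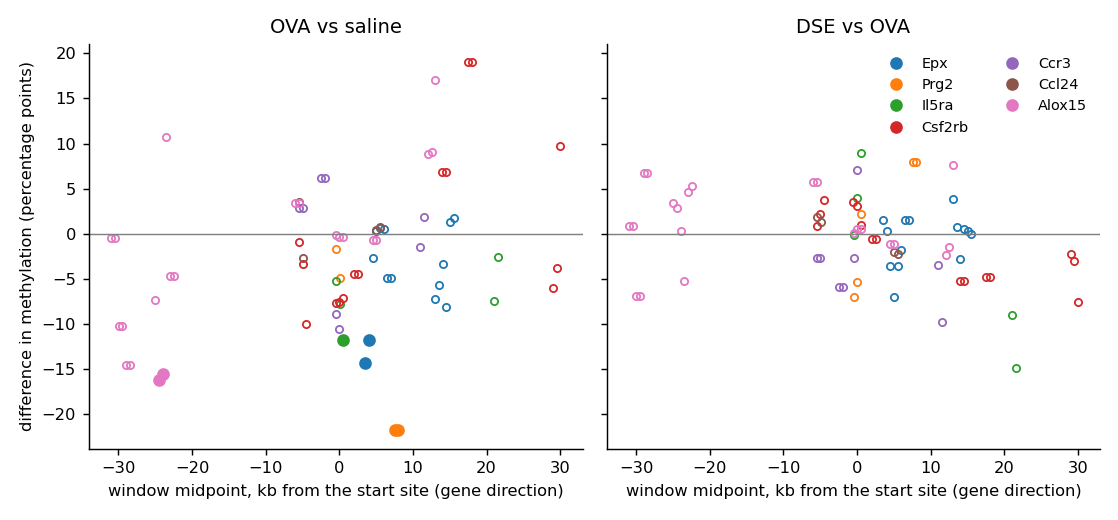
Difference in pooled methylation in percentage points (vertical axis) of each member window against the distance of its midpoint from the curated start site in kb (horizontal axis), for OVA against Saline and DSE against OVA. Filled points are called windows, and 7 are called in the first comparison, all below 0, and 0 in the second.

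The second comparison, DSE with OVA, asks whether the extract altered these values in OVA-exposed mice. By the likelihood ratio test 0 of 73 member windows were called, beside 1.62% of all windows in either direction, and by limma 0 of 7 loci were called, beside 20.4% of all loci. By limma 0 of 68 windows and 0 of 5 promoters were called as well, beside 0.475% of all windows and 8.80% of all promoters. At an unadjusted p below 0.05 the likelihood ratio test held 21 windows and limma 3 windows, 3 loci and 0 promoters. Over all loci the median difference was 1.06 percentage points, and that of the 7 loci was 1.40. Over all windows the median was -0.0354 percentage points, and over the member windows 0.131. In 1 member window every DSE mouse was above every OVA mouse (5.65% of all windows) and in 1 every DSE mouse was below (4.59%).

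Gene by gene, the order of the group means differed. For Prg2 the DSE mean of 53.0% ± 2.20 was 1.40 percentage points above the OVA mean, with a log2 difference of 0.08 ± 0.10 (SE). For Epx it was 73.5% ± 1.00, -0.292 percentage points from OVA (log2 -0.02 ± 0.09). The OVA and DSE mice of both granule genes overlapped, and both groups lay below Saline. For the interleukin 5 receptor chains the DSE mean of the locus lay between the others, while their single windows went both ways. Il5ra had 32.2% ± 3.16 in DSE mice, 4.35 percentage points above OVA (log2 0.30 ± 0.12; limma adjusted p = 0.112). With 1 mouse left out it was called in 1 of 10 fits, that without DSE 2 (log2 0.38; adjusted p = 0.0441, otherwise up to 0.310). Of its 5 tested windows 2, which overlap at exon 1, were higher in DSE than in OVA mice and 3 were lower. Csf2rb had 40.6% ± 1.95, 3.57 above OVA (log2 0.22 ± 0.07; limma adjusted p = 0.0589), with all 4 DSE mice above the 3 OVA mice. Of its 15 tested windows, however, 6 were higher and 9 were lower in DSE than in OVA mice, so most windows did not share the locus difference. With 1 mouse left out Csf2rb was called in 1 of 10 fits, that without DSE 4 (adjusted p = 0.0154, otherwise up to 0.177). For the eotaxin receptor the sign was opposite. The Ccr3 locus was at 60.6, 54.7 and 56.4% in Saline, 59.9, 59.4 and 59.7% in OVA and 55.8, 57.3, 57.1 and 53.0% in DSE mice, so that the DSE mice were below the OVA mice without overlap (a difference of -3.90 percentage points, limma adjusted p = 0.113).

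The third comparison, DSE with Saline, gives the remaining distance of the treated mice from unexposed lung. 12 of 73 member windows were called lower and 1 higher, beside 3.07% and 4.95% of all windows. By limma 8 of 68 windows were lower (3.17% of all windows). Among the loci Epx (log2 difference -0.39 ± 0.09; limma adjusted p = 0.0117) and Prg2 (-0.71 ± 0.10; adjusted p = 0.00267) were called lower, with 3.53% of all loci lower, and both calls held without any of the 10 mice. On the gene span alone Prg2 was not called (adjusted p = 0.0504). Il5ra was not called (adjusted p = 0.0720), but was without OVA 1 (0.0466) or DSE 3 (0.0379), and not without any other mouse (up to 0.163). Ccl24 was called higher (log2 0.26 ± 0.09; adjusted p = 0.0472), with 24.7% of all loci higher. The Ccl24 locus was at 70.3, 72.8 and 69.2% in Saline, 73.2, 71.9 and 70.5% in OVA and 73.7, 74.8, 74.6 and 74.2% in DSE mice, and the call was lost without 7 of the 10 mice in turn (adjusted p up to 0.156). Its 5 windows lie upstream and downstream of the gene, and none overlaps it. Of the 4 tested windows 3 were lower in DSE than in Saline mice and 1 was higher, and none was called. The higher one was chr5:135578001-135579000, upstream of the gene, at 64.4% ± 2.17 in Saline and 69.6% ± 1.83 in DSE mice. Among the promoters Ccr3 was called lower, 68.3% ± 6.04 in DSE against 80.3% ± 3.06 in Saline mice (limma adjusted p = 0.0450, beside 2.01% of all promoters). By the likelihood ratio test its window (chr9:124021001-124022000) was called too (adjusted p = 0.00348). This window is centred 470 bp before the start, and the window centred 30 bp past the start (chr9:124021501-124022500) overlaps it. That second window was at 82.1% ± 4.15 in Saline, 72.2% ± 6.64 in OVA and 77.6% ± 6.53 in DSE mice. It was not called in DSE against Saline (likelihood ratio adjusted p = 0.322, limma adjusted p = 0.563). Its OVA difference, the largest of Ccr3, was -10.6 percentage points and was not called either (likelihood ratio adjusted p = 0.0635). The promoter call rested on 56 to 79 calls in the Saline, 28 to 48 in the OVA and 151 to 182 in the DSE mice. It was lost without any Saline mouse, OVA 3, DSE 2 or DSE 4 (limma adjusted p up to 0.140).

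Further called regions separated the DSE mice from Saline. In intron 10 of Il5ra (chr6:106727001-106728500) the window was at 88.7, 90.2 and 81.8% in Saline, 78.6, 82.5 and 88.9% in OVA and 73.5, 65.7, 69.0 and 68.3% in DSE mice, on 28 to 71 calls and 3 CpGs. The DSE mice lay below all 6 others (DSE against Saline, limma adjusted p = 0.0119, and DSE against OVA, 0.150). A second region before Alox15 (chr11:70381001-70382500), 29.5 kb from the curated start, was at 52.6% ± 3.30 in Saline, 41.0% ± 6.28 in OVA and 34.8% ± 2.73 in DSE mice (DSE against Saline, limma adjusted p = 0.0109). Past the end of Alox15 (chr11:70338501-70339500) the window was higher, at 49.9% ± 12.3, 67.6% ± 16.1 and 74.8% ± 6.13, on 27 to 67 calls, a call of the likelihood ratio test (adjusted p = 2.42e-05) that limma did not share (adjusted p = 0.0703). The largest OVA difference of Csf2rb, in intron 8, was higher by 19.0 percentage points, but 1 Saline and 1 DSE mouse had under 20 calls and were left out, and it was not called (likelihood ratio adjusted p = 0.0483). The largest of Ccl24, upstream of the gene, was at 64.4% ± 2.17 in Saline and 67.7% ± 1.25 in OVA mice.

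With all 7 OVA-exposed mice set against Saline, 11 of 73 member windows were called lower and 1 higher, beside 2.77% and 4.57% of all windows, and by limma 11 of 68 were lower (3.75%). In 13 windows every exposed mouse was below every Saline mouse (4.72% of all windows), and in 0 windows was every exposed mouse above (9.53%). Epx, Prg2 and Il5ra were called at the locus (2.97% of all loci were lower), with limma adjusted p of 0.0144, 0.00239 and 0.0255. Epx was lost without Saline 2 or Saline 3 (adjusted p up to 0.0592) and Il5ra without any Saline mouse (up to 0.0920), and Prg2 was lost on the gene span alone (0.106). Csf2rb was not called (adjusted p = 0.0736). This comparison shares its mice with the first and the third and is not independent of them.

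Other genes of the eosinophil and eotaxin pathways, 85 in 7 lists, were tested in the same fits, and 78 had a measured locus. In OVA against Saline, 12 loci were lower and 3 higher, beside 3.14% and 4.01% of all loci, and of the 60 measured promoters 10 were lower and 1 higher, beside 1.63% and 2.26%. Among 13 measured granule and surface genes the loci of Adgre4, Pirb and P2ry14 were lower, and 4 of 11 promoters: those 3 and Prg3. Adgre4, a surface receptor of myeloid cells, fell from 54.7 to 42.7% and P2ry14, a receptor for UDP-glucose, from 52.6 to 42.8%. Siglecf, the standard surface marker of mouse eosinophils, was at 47.5 and 44.0% and was not called in OVA against Saline (limma adjusted p = 0.134). It was called lower in DSE against Saline (43.5%; adjusted p = 0.0388) and in all exposed mice (adjusted p = 0.0494), and all 7 exposed mice lay below all Saline mice. Ptgdr2 of the same list went the other way, with 27.4% in Saline, 33.9% in OVA and 37.8% in DSE mice. Its locus was called higher in DSE against Saline (limma adjusted p = 0.00898) and in all exposed mice (0.0183), but not in OVA against Saline (0.105). In DSE against Saline 5 of the 13 loci were lower and 1 higher, beside 3.53% and 24.7% of all loci.

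In the receptor family the loci of Csf2, which encodes GM-CSF, fell from 37.9 to 31.2% and of Csf2rb2, the beta chain specific to interleukin 3, from 38.7 to 31.8%, among 11 measured. Of 12 chemokines and receptors related to the eotaxins, Ccl3 and Ccl4, which share their windows, fell from 70.4 to 62.8% and Ccl9 from 67.2 to 58.1%. Of 10 inducers of eotaxins, Il4 fell from 71.8 to 66.5% and Tnf from 32.7 to 24.7%, and Il33 rose from 12.9 to 15.1%. Of 11 lineage factors, the locus of Gata2 rose from 14.4 to 20.5%, while the promoter of Spi1 (PU.1) fell from 68.5 to 55.1%. Of 11 adhesion genes, Itga4, an integrin chain that binds Vcam1, fell from 35.1 to 26.9%. Of 10 lipoxygenase and leukotriene genes, Alox8 fell from 38.3 to 31.2% and Alox12b rose from 11.2 to 15.2%.

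In DSE against OVA, 9 of the 78 pathway loci were higher (Id2, Jak2, Lyn, Tslp, Itga4, Itgb1, Icam1, Alox5 and Alox12), and Hrh4, a histamine receptor, was among those lower, beside the 20.4% of all loci called in either direction. Jak2, a kinase that signals from the interleukin 5 receptor, was at 32.8% in OVA and 41.6% in DSE mice. Itga4, which had been lower in OVA mice, was at 32.2% in DSE mice.

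Markers of other cells moved beside these genes. The promoters of 6 pan-leukocyte genes had a mean of 48.1 to 48.7% in Saline, 33.9 to 39.2% in OVA and 36.0 to 39.2% in DSE mice, and 5 of 6 were called lower in OVA against Saline (Ptprc, Laptm5, Itgb2, Cd53 and Vav1). Over all promoters 1.63% were called lower. The promoter of Ptprc, the gene of CD45, fell from 63.3 to 46.6%. Of the same 6 genes 2 were called lower at the locus (Ptprc and Coro1a). The Itgb2 locus was at 67.1 and 66.2%, and that of Vav1 rose from 30.6 to 33.6% (limma adjusted p = 0.152). Over all loci 3.14% were called lower in OVA against Saline and 4.01% higher. At the locus Cd3d of the T cell list (1 of 5 measured) and Mpo of the neutrophil list (1 of 3) were lower. Of the endothelial list, Pecam1 and Tek were higher at the locus (2 of 4), the list mean being 38.3 to 40.6% in Saline and 41.6 to 44.6% in OVA mice. Of the lung epithelium list 0 of 6 loci were called by limma in that comparison, with means of 44.2 to 45.1% and 43.7 to 46.6%, of the macrophage list 0 of 3 and of the B cell list 0 of 3. In DSE against OVA the loci of Marco, a scavenger receptor of macrophages (14.8% in OVA and 27.7% in DSE mice; limma adjusted p = 0.00368), Epcam of the epithelial list (47.5 and 53.9%; 0.0316) and Kdr of the endothelial list (34.6 and 40.5%; 0.0207) were higher, and none of the leukocyte, T cell, B cell and neutrophil lists was called. Over all loci 20.4% were called in that comparison, in either direction. In DSE against Saline, Mrc1, the macrophage mannose receptor, was lower (62.5 and 56.4%; adjusted p = 0.0345), and so it was in all exposed mice (0.0339). Marco, Epcam and Kdr were higher in DSE than in Saline mice, with Sftpc, Scgb1a1, Pecam1 and Tek, while Ptprc, Laptm5, Cd53, Cd3d and Mpo were lower. Of all loci 24.7% were called higher in DSE against Saline and 3.53% lower. The part of cell composition in the changes of the members was not tested. Methylation of these lists is no measure of how many cells of a type were present.

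**Figure D4:**
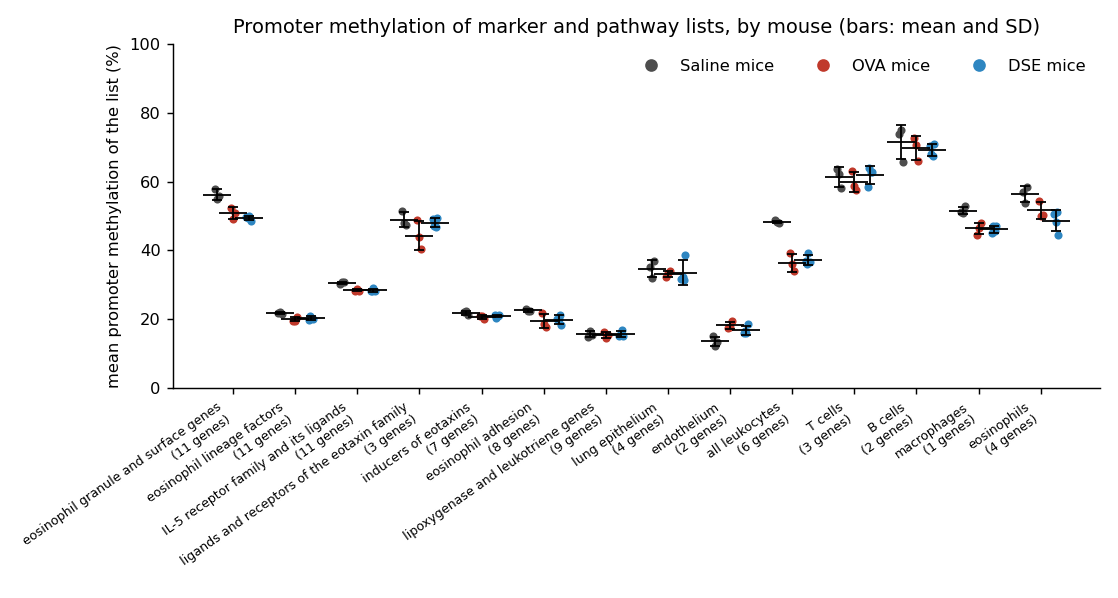
Mean promoter methylation in % (vertical axis) of each pathway and marker list (horizontal axis, with the number of measured genes), with points for mice and bars for the mean and SD. The pan-leukocyte promoters are at 48.1 to 48.7% in Saline mice and at 33.9 to 39.2% in all exposed mice.

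The genes most alike in locus methylation were sought over the 10 mice, which also carry the group differences. With Pearson's r as the measure, the closest gene at least 1 Mb away was Gm36462 for Epx (r = 0.97), Gm30369 for Prg2 (0.98), Spns3 for Il5ra (0.97), B3gnt2 for Csf2rb (0.98), Gm34259 for Ccr3 (0.96), Pabpn1 for Ccl24 (0.92) and Slc35g1 for Alox15 (0.96). Prg2 had 221 loci with r over 0.9, the most of the set, and Ccr3 had 7, the fewest. The locus of Gm30369, a long noncoding RNA, was at 47.6, 38.7 and 39.0% in Saline, OVA and DSE mice, and that of B3gnt2 at 38.3, 34.6 and 37.2%.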

How the data were processed

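Genomic DNA of whole lung from 10 mice was captured and bisulfite sequenced. According to the submitters' processing notes, reads were trimmed with cutadapt (1.10), aligned to mm10 with Bismark (0.19.0) and summarised with methylKit (1.0.0). The authors deposited 1 table of raw counts: calls, methylated calls and unmethylated calls per mouse for windows of 1000 bp every 500 bp, with at least 10 calls. Columns were assigned to mice by the number in their labels. The labels number the replicates of each group, and each was taken as a separate mouse.

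Percent methylation was 100 × methylated calls over calls, in mice with at least 20 calls. Windows were tested over the whole table by a likelihood ratio test on pooled calls (2 mice per group or more, Benjamini-Hochberg, adjusted p under 0.01, at least 10 percentage points), the study's thresholds without its minimum of 2 CpGs. Loci (non-overlapping windows within 5 kb of a RefSeq GRCm38 gene) and promoters (within 1000 bp of the curated start) were fitted with limma (3.58.1; R 4.3.3) on log2 ratios with 1 added to both counts, over all 10 mice (7 residual degrees of freedom), with adjusted p under 0.05. Scripts used Python 3.11.15, numpy 2.4.6, pandas 2.3.3, scipy 1.17.1 and matplotlib 3.10.9, and were tested on simulated data. Exact tests were two-sided.

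The members and lists were chosen with earlier results of these data known. Text names each member with its locus, its start window, its largest OVA window and every called region, and list genes that passed limma, of which 1 is not reported here. For each member the gene most alike over the mice is named. Alternatives were another threshold, minimum, pseudocount, test or span, non-overlapping windows, a replicate block and each mouse left out. Ccl11, with no window, and Agilent probe positions were not analysed here. Same-numbered mice did not deviate together (correlations of -0.03 to 0.08).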

Additional observations from a re-analysis of the deposited data

Results flagged for a closer look

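Among the DSE mice, DSE 2 stood apart at the start of Il5ra. In the window chr6:106748001-106749000 it was at 22.5% methylation, while the other 3 DSE mice were at 32.6, 32.9 and 34.6%, and Dixon's test marked the gap. The Saline mice were at 33.1 to 34.4%, and OVA 2 and OVA 3 at 18.3 and 17.9%. Without DSE 2 the Il5ra locus was called higher in DSE than in OVA mice (limma adjusted p = 0.0441; 0.112 with it). Without any other single mouse the locus was not called (adjusted p up to 0.310). 27 values of the DSE group were tested in this way and 1 was marked, while chance marks about 1 in 20. Groups of 3 mice were not tested.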

How the results depend on the processing

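In OVA against Saline the fall in Prg2, Il5ra, Epx and Csf2rb kept its direction under every alternative, and 670 of 760 recalculated values of single loci and promoters kept direction and call. Requiring 20 percentage points left 2, 1 and 1 member windows called in OVA against Saline, DSE against Saline and all exposed against Saline, the 2 being lower and each 1 higher, so that all lower calls of the last 2 comparisons were lost. Non-overlapping windows left 4, 7 and 6, of 37 or 38 tested. An F test with a scale factor left 0 in each, and called 0 windows of the whole table in OVA against Saline, so its 0 says nothing of stability. By that test 13 of 72, 20 of 73 and 24 of 73 member windows had an unadjusted p below 0.05. Over all windows these were 65365 of 436201, 89877 of 440215 and 100055 of 440764. Limma with an adjusted p under 0.01 and 10 percentage points left 0, 1 and 4, and limma alone 8 in DSE against Saline. On the gene span alone 2 of 6 loci were called in OVA against Saline and 1 in DSE against Saline. The Ccr3 promoter call (DSE against Saline) was lost, leaving 0, on percent values, with eBayes without trend or with windows within 500 bp, and with a minimum of 50 calls 0 of 4 promoters were called, Ccr3 not being measured. Csf2rb was lost in OVA against Saline with eBayes without trend (adjusted p = 0.0506). With the replicate number as a block (replicate block, DSE 4 left out), 1 window and 1 locus were called in DSE against OVA, 1 locus in DSE against Saline and 1 promoter (Ccr3) in all exposed against Saline. Epx was not called under the block in OVA, DSE or all exposed against Saline (adjusted p = 0.0928, 0.0514 and 0.0579), nor Ccl24 in DSE against Saline (0.0986). The numbers do not pair the mice.

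Leaving out 1 mouse at a time gave 6 to 15 windows in OVA against Saline, 0 to 1 in DSE against OVA, 10 to 14 in DSE against Saline and 10 to 13 in all exposed against Saline. For the loci it gave 1 to 3, 0 to 1, 2 to 4 and 1 to 3, so that the 4 loci were never all called together. For the promoters it gave 0 to 2, 0, 0 to 1 and 0 to 2, the 2 coming without OVA 1. Signs turned for differences that were not called. On the gene span Prg2 in DSE against OVA was -0.28 and Alox15 -0.08 (DSE against Saline) and -0.12 (all exposed), with Ccr3 -0.00. Within 500 bp the Alox15 promoter was -0.24 (DSE against OVA, 0.46 within 1000 bp) and -0.37 (DSE against Saline), and under the replicate block Epx was 0.01. Without 1 mouse, the log2 difference of the Alox15 locus ranged from -0.09 to 0.07 (OVA against Saline), -0.01 to 0.14 (DSE against OVA), -0.01 to 0.12 (DSE against Saline) and -0.04 to 0.08 (all exposed). That of Ccr3 ranged from -0.16 to 0.01 (DSE against Saline) and -0.06 to 0.11 (all exposed), of Epx from -0.09 to 0.02 (DSE against OVA) and of the Alox15 promoter from -0.07 to 0.28 (DSE against Saline) and -0.26 to 0.08 (all exposed). The cause of these changes was not tested.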
